A study of Mus musculus with 2 samples.

Results

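H3K27ac peaks were examined at the genes of 2 T-box transcription factors of the heart, Tbx2 and Tbx20. A peak belonged to a locus when its midpoint lay in a fixed window of the mm9 genome, chr11:85550001-85750000 for Tbx2 (200 kb) and chr9:24420001-24680000 for Tbx20 (260 kb). These windows held 44 of the 154664 peaks called in the series, 8 at Tbx2 and 36 at Tbx20. H3K27ac, an acetyl group on a lysine of the histone H3 tail, marks promoters and enhancers in use. It was profiled by ChIP-seq, the sequencing of DNA bound to an antibody-captured protein, in cells sorted from FVB/N mouse embryos at E10.5. The atrioventricular canal (AVC) library was made from EGFP-positive cells, and the library of the chambers, the atria and ventricles, from Katushka-positive cells. Katushka is a far-red fluorescent protein, and both libraries carried the genotype label Katushka+ EGFP+. The promoters that drove the reporters and the pooling of embryos are not given in the sources used here. With a single library for each tissue, differences could not be set against replicates, and the intervals allow for counting error alone.

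T-box factors bind DNA through a shared domain, the T-box. Tbx2 is mainly a repressor that is switched on in the AVC and outflow tract by BMP signals, where it keeps chamber genes off and so helps the canal stay a slowly conducting segment. Tbx20 is active in the myocardium and endocardium of the whole early heart, is needed for chamber growth, and is known to restrain Tbx2 in the chambers. Among protein-coding genes in the order of the GRCm38 gene table, Tbx2 lies between Bcas3 and Tbx4, and Tbx20 between Cypt4 and Herpud2. No mm9 gene positions were used here, so peaks were not assigned to promoters, exons or introns, a peak in a window may belong to a neighbouring gene, and markers of the sorted cell types were not checked.

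The bases before the annotated start are shown for Tbx20 alone, since the sequence table used here had no entry for Tbx2. Whether these bases lie under a peak of the Tbx20 window was not determined, since that table is for another build. The RefSeq table (GRCm38.p6) had 1 start for Tbx20, and the 250 bases before it, 5′ to 3′ on the gene's strand, read as follows, with the single motif match in capitals.
Tbx20: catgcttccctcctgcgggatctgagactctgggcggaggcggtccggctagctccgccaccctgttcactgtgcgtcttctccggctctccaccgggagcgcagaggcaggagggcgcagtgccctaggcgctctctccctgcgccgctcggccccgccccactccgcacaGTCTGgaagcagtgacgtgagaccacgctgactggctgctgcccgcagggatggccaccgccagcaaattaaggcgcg
G and C made up 68.8% of these bases, against a median of 52.4% over all 32851 promoter entries of the table cut to the same length. For known cardiac regulators, 5 motifs were searched on both strands. CAGAC, the SMAD box read by the mediators of BMP and TGF-β signals, occurred 1 time, as GTCTG starting 78 bases before the gene start; 42.2% of all entries held it. No match was found for the GATA factor core GATAA (held by 22.6% of entries), the T-box core GGTGTGA (3.33%), the NKX2-5 core AAGTG (40.7%) or the GC-rich SMAD element GGCGCC (9.59%). A match is a string of letters, not a shown binding site.

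The loci differed in how many peaks they held. At Tbx20 there were 22 AVC and 14 chamber peaks, and at Tbx2 there were 6 AVC and 2 chamber peaks. Over all 10166 windows of 260 kb tiled along the chromosomes, the median was 6 AVC and 4 chamber peaks, and 6.62% of the windows held more AVC peaks than Tbx20 and 13.1% more chamber peaks. Over 13215 windows of 200 kb the medians were 5 and 3, and 39.4% held more AVC peaks than Tbx2 and 52.2% more chamber peaks. The Tbx20 window was thus among the denser ones in both tissues, and the Tbx2 window was near the middle. AVC peaks made up 61.1% of the peaks at Tbx20 (exact Clopper-Pearson 95% interval 43.5 to 76.9) and 75% at Tbx2 (34.9 to 96.8). Over all peaks of both lists the share was 56.6%, and on chromosomes 9 and 11 it was 58.0% and 50.8%. All of these lay within the intervals of the loci. The intervals are wide on so few peaks, so they could neither show nor exclude a difference in the share of AVC peaks.

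**Figure D1:**
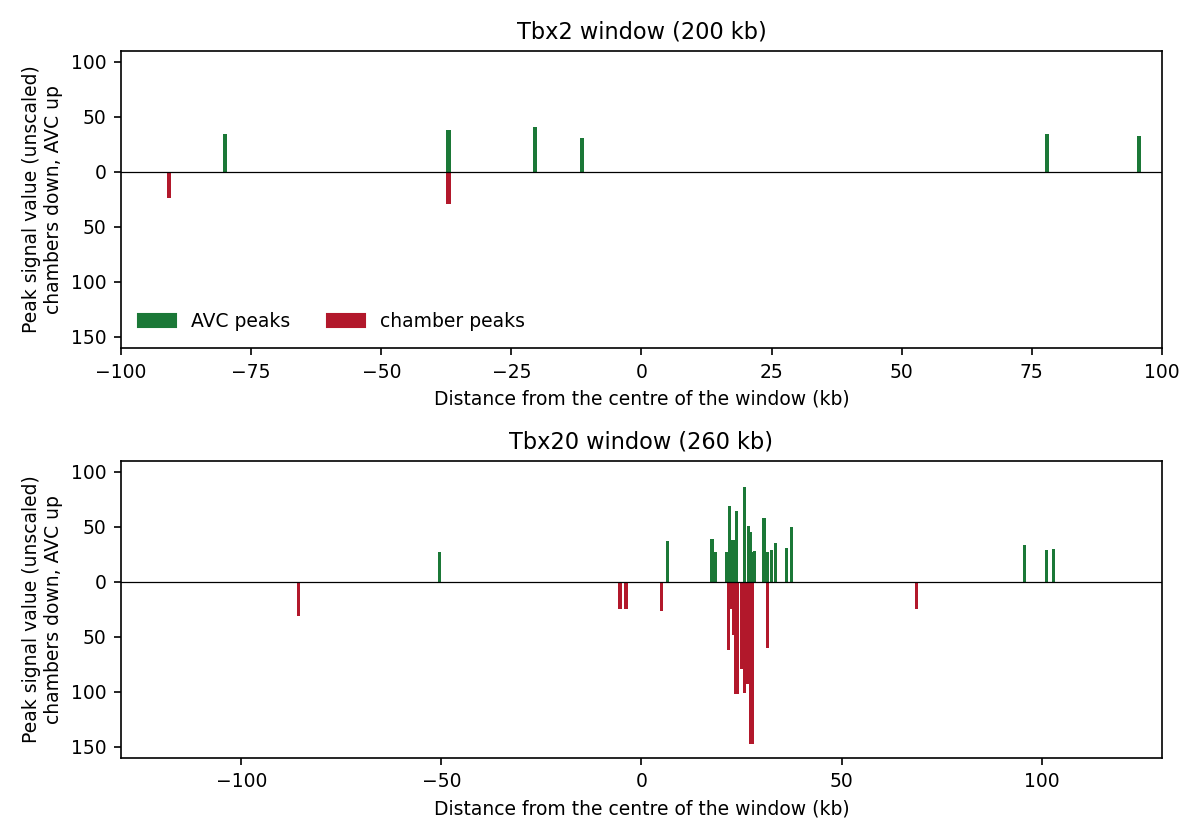
Peaks in the Tbx2 window (upper panel) and the Tbx20 window (lower panel) by distance from the centre of the window in kb, with the deposited signal value as bar height, AVC upwards and chambers downwards. Bars are drawn at least 0.8 kb wide to be visible; values are not scaled between the lists. The 8 Tbx2 peaks are scattered and reach 41, with a long stretch free of peaks through the middle of the window, and most Tbx20 peaks lie in a single cluster.

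The Tbx2 window had no strong peak in either tissue, like 62.5% of all windows of 200 kb in the AVC list and 59.5% in the chamber list. The score below is the caller's Log(ER) as deposited, with 2 as the calling threshold; scores of 5 or more are called strong here. At Tbx2 0 of 6 AVC peaks (0 to 45.9%) and 0 of 2 chamber peaks (0 to 84.2%) were strong, against 9.95% of all AVC and 18.1% of all chamber peaks. With so few peaks, these intervals include the shares of the whole lists. The other deposited number is an unnamed whole-number signal value, whose lowest value on chromosome 11 was 27 in the AVC list and 24 in the chamber list. AVC values at Tbx2 ran from 31 to 41 and the chamber values were 24 and 29. Of the AVC peaks 5 of 6 were above the median value of 32 of their list on the chromosome, and both chamber peaks were below the median of 30.

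The highest AVC peak at Tbx2 lay at chr11:85629172-85629818, with a signal value of 41 and a score of 3.67. No chamber peak overlapped it, and the nearest one ended 16346 bp away. It exceeded 77.5% of the AVC peaks of chromosome 11. The next was the single region called in both tissues. Its AVC peak spanned 85612507 to 85613238 with a value of 38 and a score of 3.30, and its chamber peak spanned 85612507 to 85612826 with a value of 29 and a score of 2.75. These peaks ranked above 70.1% of AVC and 41.8% of chamber peaks of the chromosome. Their AVC-to-chamber ratio of values was 1.31, within the interquartile range of the 1253 shared regions of chromosome 11, 0.755 to 1.48.

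The other AVC peaks at Tbx2 overlapped no chamber peak, so that 1 of 6 was shared (16.7%, 0.42 to 64.1), beside 23.2% of the whole AVC list and 29.8% of its peaks on chromosome 11. Unshared peaks were thus the usual case. Peaks at 85569491 to 85569953 and at 85727531 to 85728124 both had a value of 34, and the peak at 85745295 to 85745885 had 33. The remaining one, at 85638121 to 85638478, had 31. Their scores ran from 2.47 to 2.81. The second chamber peak, at 85558719 to 85558961, had a value of 24, the lowest of its list on the chromosome. In all, AVC peaks covered 3385 bp of the window and chamber peaks 563 bp, of which 320 bp were common.

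The middle of the Tbx2 window held no peak of either list. The longest stretch without a peak ran from 85638479 to 85727530, 89.1 kb. Relative to the centre of the window it spanned -11.5 to 77.5 kb. The median distance between neighbouring peak regions of chromosome 11 was 6.17 kb, and 176 of 7335 such gaps (2.40%) were at least as long; these long gaps made up 22.0% of all bases between peak regions. Which genes lie in this stretch was not determined. A peak that was not called does not show that acetylation was absent, since sequencing depth is unknown and no input library was used here.

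At Tbx20 strong peaks were present in both tissues. In the chambers 8 of 14 peaks had a score of 5 or more (57.1%, 28.9 to 82.3), against 18.1% of the whole list and 20.9% of chromosome 9. In the AVC 5 of 22 did (22.7%, 7.82 to 45.4), against 9.95% and 12.5%. The chamber interval lay above the share of its list, and the AVC interval included that of its own. Peaks of a locus are not independent, so both intervals are too narrow. Of all windows of 260 kb, 1.58% held more strong chamber peaks and 1.56% more strong AVC peaks than Tbx20, so the window ranked high in both lists. A score of 10 was reached by 5 chamber peaks and 1 AVC peak, beside 6.46% of the chamber list and 3.64% of the AVC list. Because the caller scores every chromosome and list by itself, a score of 5 in one list is not known to equal a 5 in the other.

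All strong Tbx20 peaks fell into a single cluster. Joining peaks of either list that lay at most 5 kb apart gave a chain from 24567219 to 24587659, 20.4 kb long, with 17 AVC and 9 chamber peaks. Of 72714 such chains in the genome 169 (0.232%) held at least as many peaks, 8 of them on chromosome 9, this one included. In the chain lay 5 of 5 strong AVC and 8 of 8 strong chamber peaks, and every peak that overlapped the other list. The 5 AVC peaks of the window outside it had scores from 2.05 to 3.21, and the 5 chamber peaks outside it from 2.13 to 2.95. Within the cluster the chamber peaks were broad, with a median width of 717 bp against 325 bp over the chamber list, while AVC peaks had a median of 477 bp against 472 bp. Of the 9 chamber peaks there 8 were strong, and of the 17 AVC peaks 5. Widths were not compared with those of strong peaks over the lists.

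**Figure D2:**
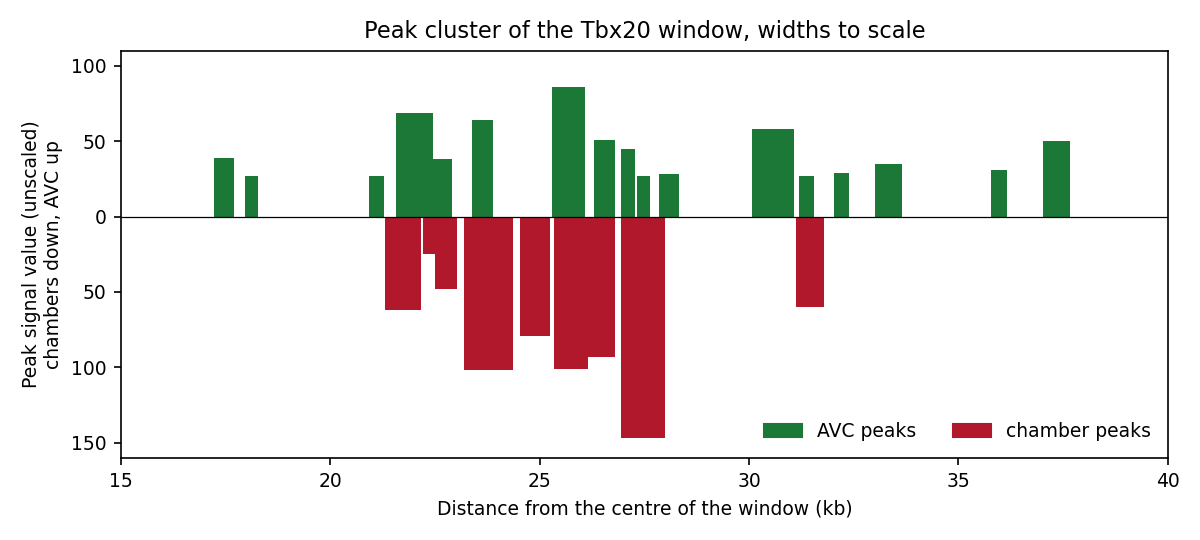
The Tbx20 cluster with peak widths to scale, by distance from the centre of the 260 kb window in kb. Bar height is the deposited signal value, AVC upwards and chambers downwards, not scaled between the lists. The chamber peaks stand closely packed in the middle and reach 147, while AVC peaks reach 86 and extend further on both sides.

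The core of the cluster was marked in both tissues. The highest chamber peak, at chr9:24576946-24577990, was 1045 bp wide, with a signal value of 147 and a score of 21.27. It exceeded 96.3% of chamber peaks of the chromosome. Over the same stretch the AVC list had 3 separate peaks with values of 45, 27 and 28. The next chamber peaks, at 24573184 to 24574358 (value 102, score 15.17), 24575333 to 24576162 (101, 14.98) and 24576164 to 24576801 (93, 13.56), each overlapped 1 AVC peak. The fifth, at 24574523 to 24575239 (79, 11.07), overlapped none, but an AVC peak began 42 bp beyond its end, so the missing overlap there rests on peak borders.

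The highest AVC peak of the locus lay at chr9:24575281-24576079, with a value of 86 and a score of 10.39, above 94.3% of AVC peaks of the chromosome. Its chamber partner had a value of 101. AVC peaks at 24571563 to 24572446 (value 69, score 7.85), 24573388 to 24573884 (64, 7.08) and 24576301 to 24576806 (51, 5.11) were also shared. The fourth by value, at 24580077 to 24581070 (58, 6.15), overlapped no chamber peak, and one with a value of 60 began 46 bp beyond its end. Each list thus had a single strong unshared peak at Tbx20, and both ended next to a peak of the other list. The share of strong peaks without overlap over the whole lists was not determined.

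Overlap at Tbx20 was above the share of the whole list in both tissues, but a difference could not be resolved. By an overlap of at least 1 bp, 9 of 22 AVC peaks were shared (40.9%, 20.7 to 63.6), beside 23.2% of the AVC list, and 8 of 14 chamber peaks (57.1%, 28.9 to 82.3), beside 31.6% of the chamber list. Both intervals included the share of the whole list, and with few, neighbouring peaks they could neither show nor exclude a difference. Shared peaks had a median score of 4.26 in the AVC and 10.8 in the chambers, and unshared peaks 2.49 and 2.26. The same medians over the whole lists were not determined. AVC peaks covered 11363 bp and chamber peaks 8305 bp, with 4190 bp in common, which was 36.9% of the AVC and 50.5% of the chamber bases.

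At 5 of the 6 Tbx20 regions with peaks of both lists the chamber signal value was the higher one. Values were compared as the highest of each list in a region. From left to right the AVC and chamber values were 69 and 62, 64 and 102, 86 and 101, 51 and 93, 45 and 147, and 27 and 60. The median AVC-to-chamber ratio was 0.588, with a range from 0.306 to 1.11, and with values summed over the peaks of a region it was 0.654. Summed, the chamber value was the higher one in 6 of 6, the first region having 107 in the AVC and 135 in the chambers, beside 55.7% of the wide shared regions of chromosome 9 described next. The values are unscaled, so the ratio is read against other regions of chromosome 9, where the chamber value was the higher one in 37.9% of 968 shared regions and in 51.5% of the 555 that were at least 500 bp wide, as all 6 were. The median ratios of these sets were 1.15 and 0.967. The Tbx20 median lay below the lower quartile of the wide regions, 0.725. Over the 4 regions strong in both lists it was 0.739, within the interquartile range of the wide regions strong in both, 0.704 to 1.21. Of these 4 regions 3 had the higher value in the chambers, against 21.8% of all 317 such regions of the chromosome and 59.6% of the 114 wide ones. The comparison with wide regions thus left a smaller gap than that with all regions, and no test is possible on 6 neighbouring regions of 1 library per tissue.

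The same regions were also compared by rank within the list and chromosome, a measure unlike the ratio of values. The AVC rank was the lower one in 4 of 6 regions, beside 37.6% of all shared regions of chromosome 9 and 47.9% of the wide ones. From left to right, the AVC rank minus the chamber rank came to 4.26, -2.40, 0.17, -5.86, -13.7 and -87.7 percentage points. The widest difference was at 24581116 to 24581772, where the AVC peak had a value of 27, the lowest of its list on the chromosome, and the stronger AVC peak described above ended 46 bp before the region.

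**Figure D3:**
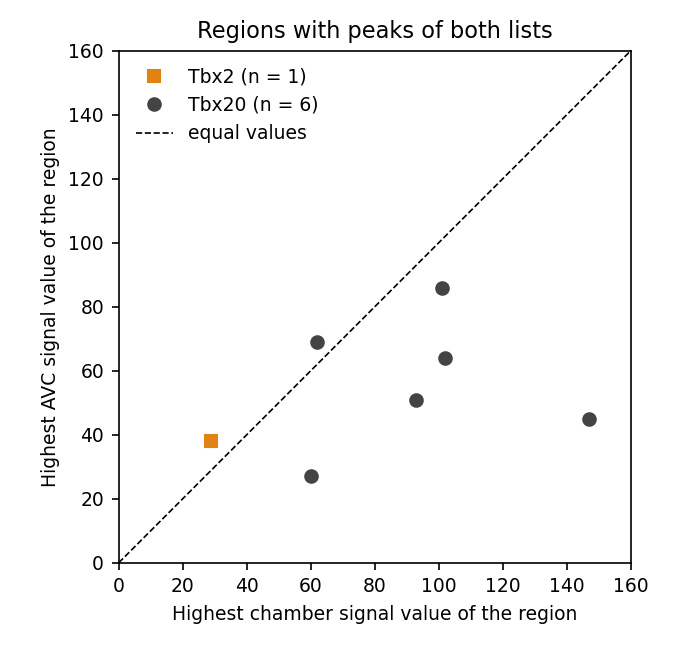
Highest AVC signal value against highest chamber signal value in each region with peaks of both lists, 6 at Tbx20 and 1 at Tbx2; the dashed line marks equal, unscaled values. At Tbx20 5 points lie below the line and 1 above it, and the Tbx2 point (29 and 38) lies above it.

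AVC peaks reached beyond the chamber peaks on both sides of the cluster. Chamber peaks spanned 24571308 to 24581772, 10465 bp, and AVC peaks spanned the whole 20.4 kb. Of the AVC peaks 3 lay before and 4 after the chamber span, with scores from 2.05 to 4.97 and none strong. Over the whole AVC list 23.2% of peaks overlapped a chamber peak, so AVC peaks without overlap were the usual case. How often AVC peaks flank the chamber peaks of other clusters was not determined. The highest were at 24587018 to 24587659 (value 50, score 4.97), where the nearest chamber peak ended 5246 bp away, and at 24567219 to 24567695 (39, 3.46), where it began 3613 bp away. At a score of at least 3 these 2 were left, and with the AVC list limited to as many peaks as the chamber list 5 of the 7 were left. In bins of 10 kb from the window start, the bin from 24570001 held 9 AVC and 8 chamber peaks, 4 and 7 of them strong, and the bin from 24580001 held 6 and 1, with 1 strong peak each. In the second of these bins AVC peaks outnumbered chamber peaks, but the strong peaks were equal in number.

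Peaks of the window outside the cluster were few, and none was strong. The highest AVC peak there, at 24556024 to 24556763, had a value of 37, above 67.9% of AVC peaks of the chromosome. The highest chamber peak there, at 24463863 to 24464179, had a value of 31, and another named one, at 24554613 to 24554813, had 27. The chamber list also had 4 peaks in the window at 25, its lowest value on the chromosome, 1 of them inside the cluster. The AVC list had 5 peaks at its lowest value, 27, of which 4 were inside the cluster. Of 26 bins of 10 kb at Tbx20, 16 held no peak, and at Tbx2 13 of 20 held none.

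Over each whole locus, the ranks summarised these patterns. The median Tbx20 peak exceeded 84.7% of the chamber peaks of chromosome 9 and 56.2% of its AVC peaks. The median Tbx2 peak exceeded 56.4% of the AVC peaks of chromosome 11 and 20.9% of its chamber peaks, the latter from 2 peaks. In the top 10% of their chromosome lay 5 chamber and 4 AVC peaks at Tbx20 and none at Tbx2.

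**Figure D4:**
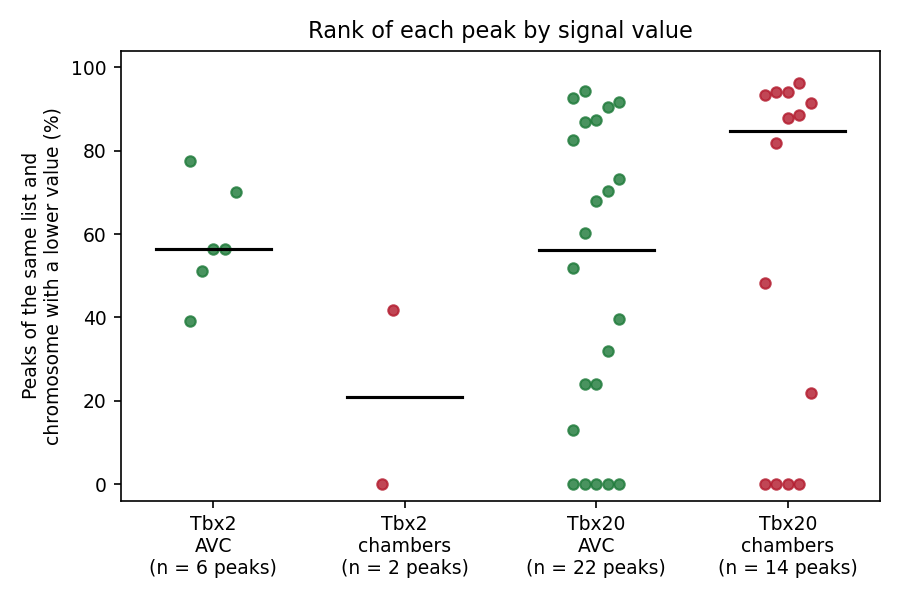
Rank of each peak by signal value, as the percentage of peaks of the same list and chromosome with a lower value; points are peaks (spread sideways for visibility) and black lines are medians. At Tbx20 8 chamber peaks lie at 81.7% or higher and the other 6 at 48.2% or lower, the AVC peaks spread from 0 to 94.3%, and at Tbx2 no peak exceeds 77.5%.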

How the data were processed

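The authors deposited 1 list of H3K27ac peaks per library. Per the file headers, OccuPeak 1.3 called the peaks of a library on its own, with windows per chromosome, reads of 50 bases and a minimum Log(ER) of 2. Bowtie, SAMtools and the build mm9 are named, without versions, in the submitters' processing notes. The deposited score is that Log(ER), of unstated log base. The signal value deposited by the authors is a whole number that the header does not name, reads or height, unscaled between lists. Input and depth are not given in the sources used here.

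Starts were converted to 1-based positions. Overlap was counted in Python 3.11.15 with pandas 2.3.3, numpy 2.4.6 and scipy 1.17.1, tested on planted peaks and against bedtools 2.31.1. Tiled windows ran to the last peak of a chromosome, without the mitochondrial genome. Ranks give the percentage of lower values. With 1 library per tissue no test was made. Peaks named are the 5 of highest signal value per locus and list and the 3 highest without overlap; others are named to account for members or borders. Members, windows and lists were chosen with earlier results of these data known. The joining of peaks, the bins, the gap, the value ratios and the motifs were chosen after the data, and the promoter sequence, had been seen.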

Additional observations from a re-analysis of the deposited data

How the results depend on the processing

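Counts depended mostly on the score minimum. At scores of at least 3, Tbx2 kept 2 AVC peaks (1379 bp, an AVC share of 100%) and 0 chamber peaks (0 bp), with 0 shared, and Tbx20 had 10 AVC peaks (6332 bp) and 8 chamber peaks; fewer peaks are left by construction. With the window narrowed by 50 kb on each side, Tbx2 had 3 AVC peaks (1737 bp) and 1 chamber peak (320 bp), and widened by 50 kb its chamber peaks covered 897 bp. At widths of at least 300 bp it had 1 chamber peak (320 bp). With an overlap of at least 50% of the peak, 0 AVC peaks at Tbx2 were shared. At a score of 10 or more Tbx20 had 1 AVC and 5 chamber strong peaks, and by the top 10% of signal values 5 chamber peaks. Ranked within the whole list instead of the chromosome, the median peak exceeded 63.1% (AVC) and 24.6% (chambers) at Tbx2 and 62.8% and 88.2% at Tbx20. Of 130 values under alternatives, 105 stayed near the value reported and 25 did not. Near means within 1.5 times that value, or for shares and ranks within an exact 95% binomial interval. Some of the 105 could not have moved. Limiting the AVC list to as many peaks as the chamber list left the chamber list whole, and a score of at least 3 removed no strong peak. For ranks, the interval was taken over all peaks of the chromosome and is narrow (83.4 to 86.0 for Tbx20 chamber peaks), and all 4 ranks left it. That interval does not measure the spread among the peaks of a locus. Under the alternatives that could have added strong peaks at Tbx2, the wider window and placing by any overlap, there were 0. The top 10% of signal values also gave 0, but this says little more. It is a narrower limit on chromosome 11, where 11.8% of AVC and 20.8% of chamber peaks were strong. The summed values and the limit to strong regions were added after seeing the data. No paired analysis was possible because AVC and chambers have a single library each. Unknown depth limits what a missing peak shows.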

Other observations

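The chamber and AVC peaks of the shared Tbx2 region began at the same base, 85612507, although peaks were called separately in each list. Over both whole lists 238 AVC peaks began at the same base as a chamber peak, beside 20324 AVC peaks with overlap (1.17%).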
